A study of Mus musculus with 4 samples.

Results

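The 9 genes described here write, copy, read or remove methyl groups on cytosine in DNA. They were taken by symbol from the gene tables, and all 9 were found among the 17559 genes of the series. They are *Dnmt1*, *Uhrf1*, *Dnmt3a*, *Dnmt3b*, *Tet1*, *Tet2*, *Tet3*, *Tdg* and *Mbd2*. RNA-seq was done on CD8+ T cells of C57BL/6 mice with the OT-I transgene, which encodes a receptor for an ovalbumin peptide, from tissue labelled LN. All cells had been isolated by negative magnetic selection to over 95% purity, activated for 2 d with anti-CD3 at 1 µg/ml, anti-CD28 at 2 µg/ml and IL-2 at 10 ng/ml, and kept for 2 d more in IL-2 alone. The NaBu group of 2 libraries was then given 1 mM NaBu for 12 h, and the control group of 2 libraries was not. NaBu is the usual short form of sodium butyrate, a salt of a short-chain fatty acid made by gut bacteria and an inhibitor of histone deacetylases.

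In mammals DNMT3A and DNMT3B place new methyl groups on CpG sites. DNMT1, guided by UHRF1 to the hemimethylated DNA behind the replication fork, copies the pattern to the new strand, so the demand for both is highest in S phase. The TET enzymes oxidise the methyl group, TDG cuts out the oxidised base for repair, and MBD2 binds methylated CpG and brings in the NuRD complex, which carries histone deacetylases. In CD8+ T cells these enzymes are known to take part in silencing or opening effector and memory genes.

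Both genes of maintenance methylation were lower after NaBu, and the other members changed less. *Uhrf1* fell 2.22-fold and *Dnmt1* 1.87-fold. In bulk RNA, fewer cells of a type and less RNA per cell cannot be told apart. Of the de novo writers, *Dnmt3a* fell 1.28-fold and *Dnmt3b* rose 1.49-fold. Of the erasers, *Tet3* fell 1.41-fold, *Tdg* fell 1.36-fold and *Tet1* rose 1.75-fold from a level below 1 FPKM, while *Tet2* did not pass the test, and neither did *Mbd2*. That makes 2 members higher, 5 lower and 2 not past the threshold (edgeR's quasi-likelihood test, Benjamini-Hochberg adjusted p under 0.05). Over all 12943 tested genes 68.6% passed, 34.5% higher and 34.1% lower, so the share of members that passed (7 of 9) is near that of all genes. Higher calls made up 31.9% of genes with a mean level of 1 FPKM or more and 49.2% of genes below 1 FPKM, the class that holds *Tet1* alone among the members. All 9 members passed the filter on low counts, and their median log2 fold change was -0.35, beside 0.005 over all tested genes. When the test asked for a change beyond 1.5-fold (edgeR's glmTreat), which 29.2% of all tested genes passed, only *Uhrf1* and *Dnmt1* remained called, with adjusted p of 4.39e-06 and 0.000203.

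Each library held 19857701 to 20548571 expected counts in all. The defining T cell genes were present. Of the 7 measured, 6 were lower and 1 (*Cd3g*, log2 fold change 0.41) higher after NaBu, the lower ones by -0.74 (*Cd3d*) to -0.16 (*Cd3e*) on the log2 scale. *Cd3e* was at 298 and 293 FPKM in NaBu libraries against 308 and 311 FPKM in controls, and *Cd8a* was at 93.9 and 97.0 FPKM in NaBu libraries against 118 and 116 FPKM in controls. *Trac*, another of the 8 T cell markers, has no row in the tables analysed here. Of 11 myeloid and dendritic cell markers, 4 were higher and 1 lower after NaBu, with a summed level of 39.6 to 41.8 FPKM in NaBu libraries and 16.0 to 17.8 FPKM in controls, mostly from *Cd68*, and with no row for *Csf1r* or *Lyz2*. Summed markers of B cells were at 2.62 and 1.96 FPKM in NaBu libraries against 5.73 and 4.07 FPKM in controls (*Cd79b* lower), and those of NK cells at 4.94 and 5.70 FPKM in NaBu libraries against 10.6 and 9.47 FPKM in controls (*Klrb1c* lower). *Cd4* was higher, at 0.66 and 0.65 FPKM in NaBu libraries against 0.02 and 0.03 FPKM in controls, as was *Zbtb7b*, at 26.1 and 26.3 FPKM in NaBu libraries against 20.82 and 19.21 FPKM in controls. *Cd40lg*, the other CD4 T cell marker, was at 0.12 and 0 FPKM in NaBu libraries against 0.28 and 0.24 FPKM in controls. It was too scarce to be tested. Summed red cell markers were at 6.69 and 7.37 FPKM in NaBu libraries against 1.34 and 1.39 FPKM in controls, and the rise came from *Hba-a1* alone. *Hbb-bs* was at 0 FPKM in both NaBu libraries against 0.16 and 0.48 FPKM in controls. *Alas2* was at 0.10 and 0.13 FPKM in NaBu libraries against 0.18 and 0.10 FPKM in controls, and neither of these was tested. The part of other cells in the results was not tested. The labels do not say whether replicates are separate cultures or animals, so the spread behind the p-values is that between these libraries alone and may be technical.

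RefSeq (GRCm38.p6, the assembly called mm10) gives 300-base promoter windows, from 250 bases before to 50 after a start, for 8 of the 9 members, 13 windows in all. *Dnmt1* and *Uhrf1*, the 2 members with the largest falls, are shown because each has a window holding a word of the E2F consensus, E2F being the factor family that drives S phase genes. *Dnmt3b*, the de novo writer that rose, is shown as a window without a word. Capitals mark the words searched, TTTCCCGC, TTTCGCGC, TTTGCCGC and TTTGGCGC, on both strands.
Dnmt1 (chr9:20952574-20952873, minus strand): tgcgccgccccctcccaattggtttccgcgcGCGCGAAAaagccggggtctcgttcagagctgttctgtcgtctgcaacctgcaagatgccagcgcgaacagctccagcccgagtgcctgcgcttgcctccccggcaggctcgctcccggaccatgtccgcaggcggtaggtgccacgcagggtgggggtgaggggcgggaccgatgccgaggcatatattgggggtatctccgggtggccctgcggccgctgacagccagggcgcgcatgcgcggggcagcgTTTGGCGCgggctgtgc
Uhrf1 (chr17:56304063-56304362, plus strand): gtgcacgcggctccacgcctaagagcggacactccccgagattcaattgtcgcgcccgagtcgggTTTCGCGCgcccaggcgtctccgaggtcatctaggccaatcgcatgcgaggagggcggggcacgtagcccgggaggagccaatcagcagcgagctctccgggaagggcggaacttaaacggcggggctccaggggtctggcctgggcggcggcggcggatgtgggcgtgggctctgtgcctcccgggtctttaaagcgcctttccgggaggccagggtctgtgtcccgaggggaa
Dnmt3b (chr2:153649199-153649498, plus strand): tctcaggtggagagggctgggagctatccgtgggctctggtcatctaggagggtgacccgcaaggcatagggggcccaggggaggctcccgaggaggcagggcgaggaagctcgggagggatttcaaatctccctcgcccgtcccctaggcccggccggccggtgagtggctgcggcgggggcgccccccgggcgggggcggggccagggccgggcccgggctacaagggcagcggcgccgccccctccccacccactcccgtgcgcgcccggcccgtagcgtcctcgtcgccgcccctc

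The *Dnmt1* window holds 2 such words, one read on the opposite strand beginning 219 bases before the start and one at base 34 after it. The *Uhrf1* window holds 1, beginning 185 bases before the start. The other 11 windows of members hold none, among them those of *Dnmt3a*, *Tet3* and *Tdg*, which also fell. Among all 32851 promoter windows 2.26% hold at least 1 word, and among the 13073 windows of genes tested here 4.01%. *Dnmt1* has 2 more annotated windows and *Uhrf1* 1 more, and none of these holds a word. Many windows of members were rich in CpG, the substrate of the enzymes themselves. At least 20 CpG sites were found in 8 of the 13 windows, overlapping windows of *Dnmt3a* among them, beside 26.5% of all windows. The share among windows of tested genes was not counted here, so this richness is not shown to be particular to the members. The *Tet2* window had 57 CpG sites, the *Dnmt1* and *Uhrf1* windows shown had 33 each, and the *Dnmt3b* window had 30. A matching word is a description of the sequence. No binding was measured, and any part of E2F factors in the changes was not tested.

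*Dnmt1* (gene 13433, mm10 chromosome 9, 20907206 to 20959888), the maintenance methyltransferase, was at 76.2 and 74.3 FPKM in NaBu libraries against 132 and 131 FPKM in controls. Both NaBu libraries lay far below both controls, and the libraries within a group differed little. Behind these levels were 8135 and 7940 expected counts in NaBu libraries and 14455 and 14501 in controls. The log2 fold change was -0.90 ± 0.06 (SE), with a 95% interval of -1.04 to -0.77 and an edgeR adjusted p of 3.84e-07. By level per length *Dnmt1* ranked 969th and 997th in NaBu libraries and 509th and 512th in controls among genes with an FPKM of 1 or more. It remained the most abundant of the writers in every library.

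*Uhrf1* (gene 18140, chromosome 17, 56303337 to 56323486) encodes the protein that recognises hemimethylated DNA and recruits DNMT1. Its level was 51.6 and 55.4 FPKM in NaBu libraries against 108 and 111 FPKM in controls. The groups did not overlap. The log2 fold change was -1.15 ± 0.06 (SE), with an interval of -1.29 to -1.01 and an edgeR adjusted p of 9.53e-08, the largest change among the 9 members. The ratio of *Dnmt1* to *Uhrf1* FPKM was 1.48 and 1.34 in NaBu libraries against 1.23 and 1.18 in controls.

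Genes of S phase were lower alongside both. All 21 on the list fell (median -1.33 on the log2 scale), beside 34.1% lower over all tested genes. Of these, 17 fell further than *Dnmt1* and 14 further than *Uhrf1*. *Dnmt1* FPKM equalled 11.5% and 10.5% of the summed FPKM of the S phase list in NaBu libraries, against 7.78% and 7.40% in controls. *Mki67*, the gene of the proliferation marker Ki-67, was at 18.5 and 21.2 FPKM in NaBu libraries against 106 and 110 FPKM in controls. The part of these changes in the fall of *Dnmt1* and *Uhrf1* was not tested.

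**Figure D1:**
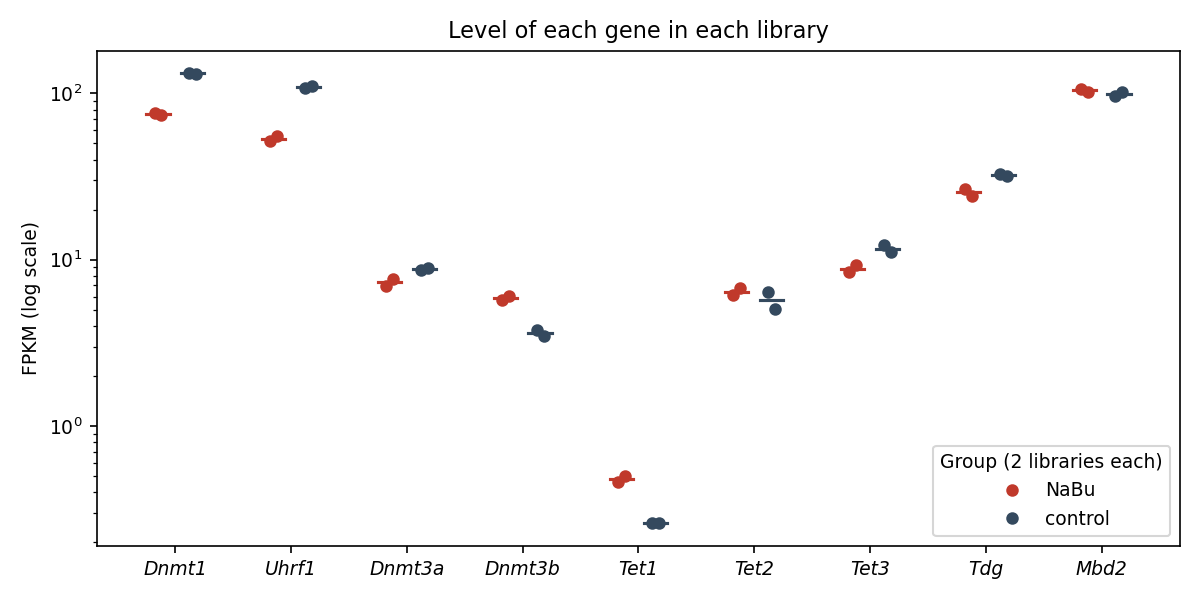
FPKM (log scale) of each of the 9 genes in the 2 NaBu and the 2 control libraries, with a bar at the mean of each group. *Dnmt1* and *Uhrf1* are clearly lower in NaBu libraries, *Dnmt3b* and *Tet1* are higher, and the groups of *Tet2* overlap.

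The de novo writers moved in opposite directions. *Dnmt3a* (gene 13435, chromosome 12, 3801559 to 3914443) was at 6.96 and 7.66 FPKM in NaBu libraries against 8.62 and 8.85 FPKM in controls. The groups did not overlap, but the gap between them was small. Its log2 fold change was -0.35 ± 0.07 (SE), with an edgeR adjusted p of 0.000927. *Dnmt3a* no longer passed by limma on log2(FPKM + 1) without a filter on low values, where the change was -0.23 (adjusted p = 0.0649).

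*Dnmt3b* (gene 13436, chromosome 2, 153649411 to 153687730) was at 5.70 and 6.06 FPKM in NaBu libraries against 3.80 and 3.46 FPKM in controls, from 458 and 490 counts in NaBu libraries and 321 and 292 in controls. Each NaBu library was above each control. The log2 fold change was 0.57 ± 0.09 (SE), with an interval of 0.36 to 0.78 and an edgeR adjusted p of 0.000305. *Dnmt3a* FPKM was 1.22 and 1.26 times that of *Dnmt3b* in NaBu libraries, against 2.27 and 2.56 times in controls, so the writers lay closer together after NaBu. *Dnmt3l*, a partner of both enzymes without activity of its own, was at 0.06 FPKM or less in every library and was not tested. *Trdmt1*, a relative that methylates transfer RNA, was at 4.16 and 3.33 FPKM in NaBu libraries against 2.75 and 2.78 FPKM in controls (log2 fold change 0.34, edgeR adjusted p = 0.0474). It no longer passed by DESeq2 or without any 1 of control 1, control 2 and NaBu 1.

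Summed over *Dnmt1*, *Dnmt3a* and *Dnmt3b*, the writers reached 88.9 and 88.0 FPKM in NaBu libraries, against 145 and 144 FPKM in controls. *Dnmt1* made up 85.1% ± 0.951 of that sum in NaBu libraries and 91.4% ± 0.0119 in controls (SD, n = 2 each). The share of *Dnmt3b* was 6.65% ± 0.334 in NaBu libraries and 2.52% ± 0.154 in controls, and that of *Dnmt3a* was 8.27% ± 0.617 in NaBu libraries and 6.06% ± 0.143 in controls. With 2 libraries per group, the smallest two-sided p of an exact permutation test is 0.333, and shares were not tested.

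**Figure D2:**
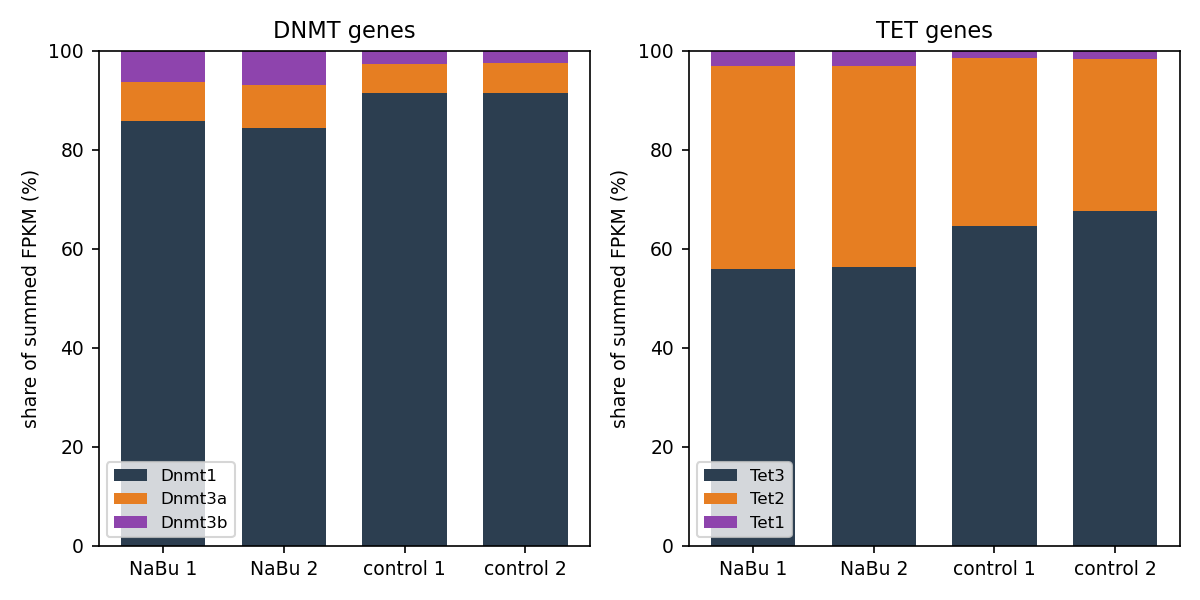
Share of each gene in the summed FPKM of its family, in percent, for each library, with the DNMT genes on the left and the TET genes on the right. *Dnmt1* is about 85% of the DNMT sum in NaBu libraries and about 91% in controls, and *Tet3* is 56% of the TET sum in NaBu libraries and 65% to 68% in controls.

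The TET genes did not move together. *Tet3* (gene 194388, chromosome 6, 83362373 to 83457208), the most abundant of them, was at 8.38 and 9.28 FPKM in NaBu libraries against 12.2 and 11.1 FPKM in controls. The groups did not overlap. Its log2 fold change was -0.50 ± 0.07 (SE), with an edgeR adjusted p of 0.000123. With the trend on GC content removed, the change was -0.75 (adjusted p = 1.34e-07), and *Tet3* had the highest GC content of the 9 members, at 57.2%.

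*Tet2* (gene 214133, chromosome 3, 133463677 to 133545136), a gene often mutated in human blood cancers, was at 6.14 and 6.71 FPKM in NaBu libraries against 6.42 and 5.08 FPKM in controls. Control 1 lay between the NaBu libraries, and control 2 stood below them. The controls differed by more than counting error, with 59.9 CPM in control 1 (exact binomial 95% interval 56.6 to 63.4) and 47.4 in control 2 (44.4 to 50.4). The log2 fold change was 0.06 ± 0.10 (SE), with an interval of -0.16 to 0.29 and an edgeR adjusted p of 0.60. The call depended on single controls and on the correction for GC content. Without control 1 *Tet2* passed as higher, with a log2 fold change of 0.24 and an adjusted p of 0.0255, and without control 2 the value was -0.10 (adjusted p = 0.268). It also passed with the GC trend removed, at 0.29 (adjusted p = 0.031), and had the lowest GC content of the 9 members, at 45.5%.

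*Tet1* (gene 52463, chromosome 10, 62804570 to 62887469), prominent in embryonic stem cells, was scarce. It was at 0.46 and 0.50 FPKM in NaBu libraries against 0.26 FPKM in both controls, from 131 and 140 expected counts in NaBu libraries and 73.8 and 75.4 in controls. Each NaBu library was above each control. The log2 fold change was 0.81 ± 0.15 (SE), with an interval of 0.47 to 1.14 and an edgeR adjusted p of 0.000741. The FPKM scale with a pseudocount of 1 gave 0.23 (adjusted p = 0.0108 by limma), since such a scale understates the change of low genes.

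*Tet3* was 1.37 and 1.38 times *Tet2* by FPKM in NaBu libraries, against 1.90 and 2.19 times in controls. *Tet2* made up 40.8% ± 0.21 of the summed TET FPKM in NaBu libraries and 32.4% ± 2.23 in controls, and *Tet1* 3.05% ± 0.0273 in NaBu libraries and 1.48% ± 0.143 in controls (SD, n = 2 each). The summed level itself was 14.98 and 16.49 FPKM in NaBu libraries against 18.87 and 16.46 FPKM in controls. NaBu 2 was level with control 2, so the sum did not separate the groups.

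*Tdg* (gene 21665, chromosome 10, 82629814 to 82650799), the glycosylase that removes oxidised methylcytosine, was at 26.7 and 24.1 FPKM in NaBu libraries against 32.8 and 32.1 FPKM in controls. The groups did not overlap. The log2 fold change was -0.45 ± 0.07 (SE), with an edgeR adjusted p of 0.000152. Expected counts of *Tdg* were fractional in 3 of the 4 libraries and those of *Tet1* in all 4, so part of their reads had been divided with other loci and their values are less certain. Those of the other 7 members were whole numbers in all libraries, to within 0.005.

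*Mbd2* (gene 17191, chromosome 18, 70568225 to 70629134), the reader, had 3937 and 3788 counts in NaBu libraries and 3649 and 3888 in controls. Its level was 106.5 and 102.4 FPKM in NaBu libraries against 96.3 and 101.6 FPKM in controls. On that scale the groups just failed to overlap, as they did for 8 of the 9 members and for 84.0% of all tested genes. On the TMM scale the log2 fold change was -0.02 ± 0.06 (SE), with an interval of -0.15 to 0.12 and an edgeR adjusted p of 0.797. The sign depends on the scale, and library totals alone gave 0.08 (adjusted p = 0.275). *Mbd2* was the most abundant member in both NaBu libraries, and in controls *Dnmt1* and *Uhrf1* stood above it. The ratio of *Dnmt1* to *Mbd2* FPKM was 0.716 and 0.725 in NaBu libraries, against 1.37 and 1.29 in controls.

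By mean FPKM, the order of levels in NaBu libraries was *Mbd2*, *Dnmt1*, *Uhrf1*, *Tdg*, *Tet3*, *Dnmt3a*, *Tet2*, *Dnmt3b* and *Tet1*. The neighbours *Dnmt3a* and *Tet2*, at 7.31 ± 0.495 and 6.43 ± 0.403 FPKM (SD, n = 2), and *Tet2* and *Dnmt3b*, at 5.88 ± 0.255 FPKM, lay within the sum of their spreads. In controls the order was *Dnmt1*, *Uhrf1*, *Mbd2*, *Tdg*, *Tet3*, *Dnmt3a*, *Tet2*, *Dnmt3b* and *Tet1*, with 3.63 ± 0.24 FPKM for *Dnmt3b* and 0.26 FPKM for *Tet1*.

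**Figure D3:**
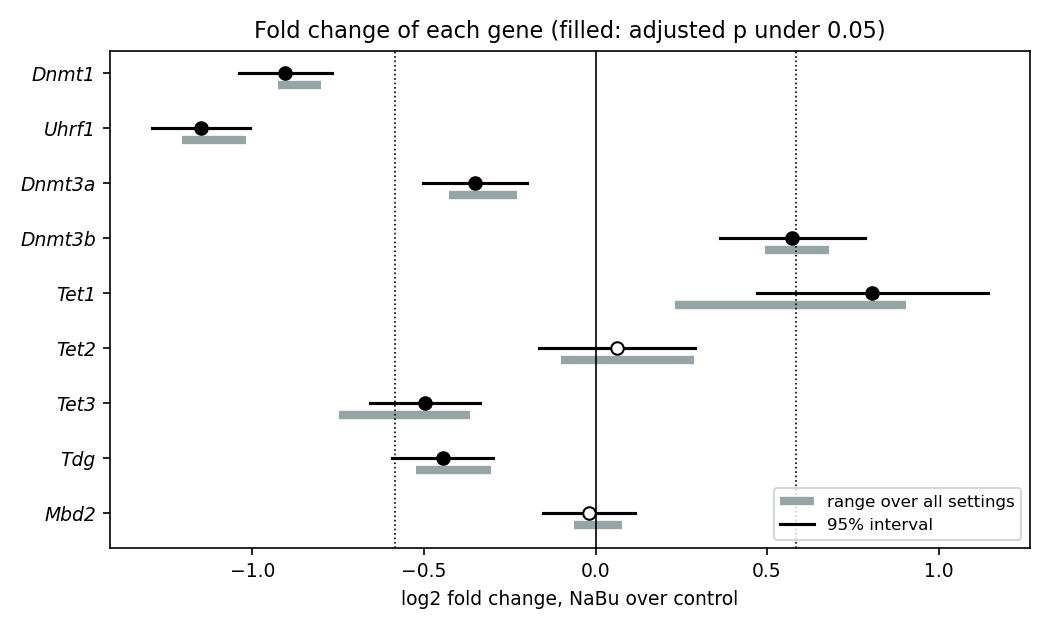
Log2 fold change of NaBu over control for each gene, with the edgeR 95% interval (black line), the lowest and highest value over all processing settings (grey bar) and dotted lines at a 1.5-fold change. Filled points passed the test, and only *Dnmt1* and *Uhrf1* lie wholly beyond the 1.5-fold line, while *Tet2* and *Mbd2* span 0.

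Of the 9 members, 7 are listed with more than 1 transcript, and for these the deposited length can differ between libraries with the mix of transcripts. Length varied between libraries for 3926 of 4423 genes with several transcripts and for 0 of 9754 genes with a single one. *Uhrf1*, with 4 listed transcripts, had a mean length of 3489 bases in both NaBu libraries against 3543 and 3542 bases in controls, a difference of -1.52%. *Dnmt3b*, with 9, had 4009 and 4037 bases in NaBu libraries against 4110 and 4073 bases in controls, a difference of -1.69%. In both genes the NaBu libraries were shorter with no overlap. *Dnmt1* and *Tdg* also did not overlap but differed by 0.12% and 0.153%, and *Dnmt3a*, *Tet1* and *Mbd2* overlapped. Of 3190 tested genes with several transcripts and at least 100 counts in every library, 40.8% did not overlap and 13.0% did so with a difference of 1% or more. The files do not divide counts between transcripts, so which ones shifted was not analysed here.

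**Figure D4:**
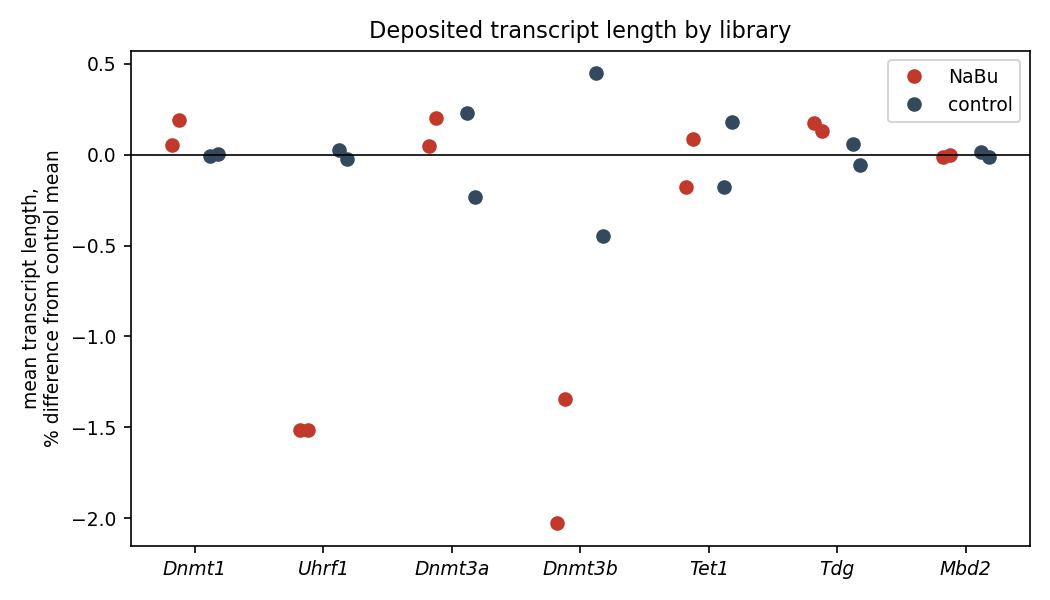
Mean transcript length in each library as a percent difference from the control mean, for the 7 members with several listed transcripts. *Uhrf1* and *Dnmt3b* are 1.5% to 1.7% shorter on average in NaBu libraries, and the other 5 differ by less than 0.2%.

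The genes that work with the members were counted from lists. Over all tested genes 68.6% were called, 34.5% higher and 34.1% lower. Calls made up 92.3% of tested maintenance partners, 89.5% of the base excision list and 75% of TET cofactors. They made up 69.2% of the methyl donor list, 55.6% of the methyl-CpG reader list and 54.5% of NuRD partners. These last lists were thus near or below the share of all genes. Of 13 maintenance partners, 11 fell, 1 rose and 1 did not pass, with a median log2 fold change of -0.59. On library totals 8 of them fell, and by DESeq2 9. *Pcna*, the replication clamp that holds DNMT1 at the fork, was at 199 and 206 FPKM in NaBu libraries against 396 and 437 FPKM in controls. *Lig1*, a DNA ligase whose methylated form is bound by UHRF1, fell with a log2 fold change of -1.80, *Suv39h1*, a histone methyltransferase of silent chromatin, with -1.52, and *Hells*, a remodeller needed for DNA methylation, with -0.92. *Uhrf2*, the paralogue of *Uhrf1*, fell with -0.44, and *Usp7*, a deubiquitinase that binds DNMT1 and UHRF1, had 0.06 and did not pass (edgeR adjusted p = 0.375). The ratio of *Uhrf1* to *Uhrf2* FPKM was 2.80 and 3.17 in NaBu libraries, against 4.96 and 4.64 in controls. The single call upward, *Zbtb24*, at a log2 fold change of 0.23, was lost when any 1 library was left out and by DESeq2, while 2 partners rose on library totals and with the GC trend removed.

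Of 9 other genes listed with the methyl-CpG readers, 5 fell, none rose and 4 did not pass, and with the GC trend removed 1 rose. The list includes relatives by family, and binding to methylated DNA was not measured. *Mbd3*, a close relative of *Mbd2* that takes its place in NuRD, fell most, at 25.6 and 25.5 FPKM in NaBu libraries against 64.4 and 61.2 FPKM in controls (log2 fold change -1.39, edgeR adjusted p = 3.03e-08). *Mbd2* FPKM was 4.17 and 4.02 times that of *Mbd3* in NaBu libraries, against 1.496 and 1.659 times in controls. *Mbd4*, a glycosylase, fell with a log2 fold change of -0.77 and *Mbd1* with -0.42. Of 11 NuRD partners of *Mbd2*, 1 rose, 5 fell and 5 did not pass. The riser was *Hdac1*, a histone deacetylase, at 246 and 229 FPKM in NaBu libraries against 98.0 and 99.4 FPKM in controls. *Chd3*, one of the remodelling ATPases of the complex, fell with a log2 fold change of -2.59, while its alternative *Chd4* had 0.06 and *Hdac2* -0.12, neither past the test. On library totals 3 NuRD genes rose, and 2 with the GC trend removed.

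Of 19 tested genes of base excision and cytosine deamination, 4 rose and 13 fell, with a median of -0.54. *Apex1*, the endonuclease that cuts after TDG has removed the base, fell with a log2 fold change of -1.19, *Xrcc1* with -0.54 and *Parp1* with -0.44. *Polb*, of the same list, rose with 0.37. *Neil3*, a glycosylase of dividing cells, fell with -2.60 and *Fen1*, a flap endonuclease, with -1.34. The 3 stress genes *Gadd45a*, *Gadd45b* and *Gadd45g*, which have been linked to active demethylation, rose with 1.43, 1.99 and 1.28. *Gadd45g* was at 201 and 204 FPKM in NaBu libraries against 84.8 and 70.8 FPKM in controls.

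Of 16 tested TET cofactors and regulators, 3 rose, 9 fell and 4 did not pass, and without NaBu 2 only 5 fell. *Idh2*, whose product 2-oxoglutarate is a TET substrate, was at 27.7 and 27.6 FPKM in NaBu libraries against 13.2 and 13.3 FPKM in controls (log2 fold change 0.97), while *Idh1* fell with -0.46. *D2hgdh*, which clears the TET inhibitor 2-hydroxyglutarate, fell with -0.97. *Cxxc5*, which can bind TET2, rose with 1.98, at 1.87 and 2.15 FPKM in NaBu libraries against 0.55 and 0.40 FPKM in controls. *Ogt*, a partner of TET2 and TET3, fell with -0.43. Of 13 tested genes of methyl donor supply, 4 rose and 5 fell, with a median of 0.02, and only 2 fell on library totals or without NaBu 1. Without NaBu 1, and also without NaBu 2, only 1 rose, and without NaBu 2 only 3 fell. *Mat2a*, which makes the methyl donor S-adenosylmethionine, fell with -0.31 and *Mtr*, methionine synthase, with -1.18. *Ahcy*, which removes the by-product of methylation, had 0.02 and did not pass.

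**Figure D5:**
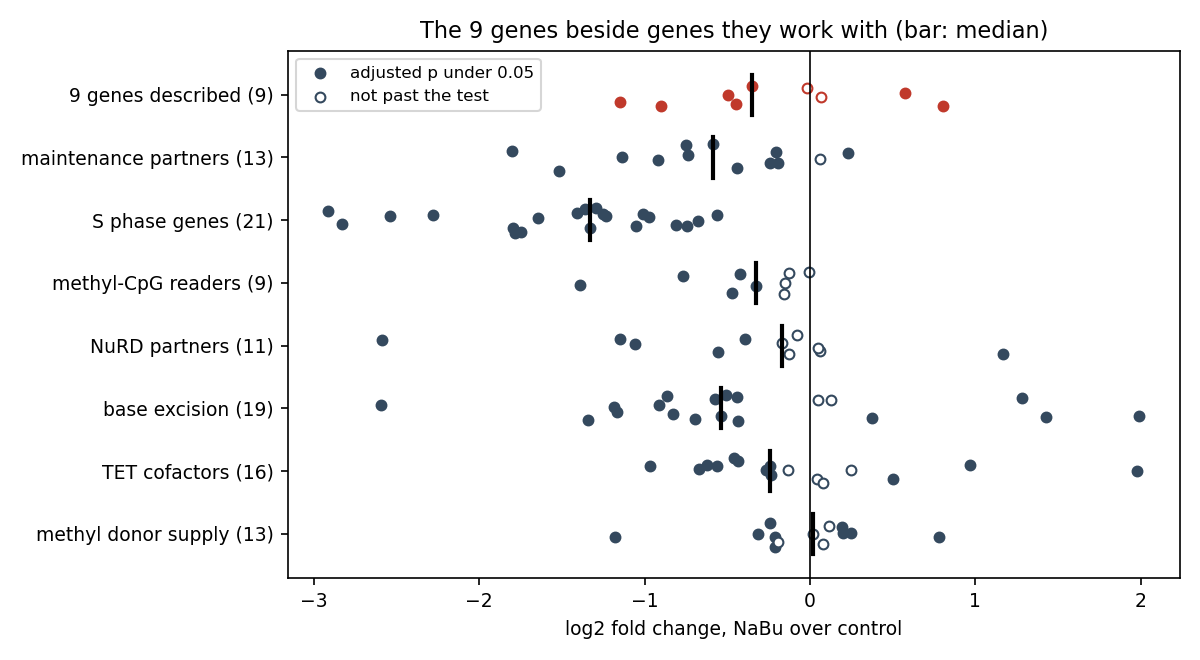
Log2 fold change of NaBu over control for the 9 genes (top, red) and the tested genes of 7 lists, with the number tested in brackets and a bar at each median. Every S phase gene lies below 0, and the 9 genes spread from -1.15 (*Uhrf1*) to 0.81 (*Tet1*).

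The genes whose pattern over the 4 libraries was most like that of a member were found by distance in log2 CPM, centred on each gene's mean, among 10361 genes. Nearest to *Dnmt1* were *Med24*, *Gbe1* and *Zbtb1*, at distances of 0.0182 to 0.025. Nearest to *Dnmt3a* were *Aoah*, *Tmem192* and *Pde4b*, nearest to *Tet2* were *Plk3*, *Ercc2* and *Acvrl1*, and nearest to *Tet3* were *Asb2*, *Rgl2* and *Mocs1*. With 4 libraries in 2 groups, such a pattern is shared by many genes. Within a distance of 0.2 there were 543 genes around *Dnmt1*, 1387 around *Dnmt3a*, 848 around *Tet3* and 371 around *Tet2*.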

How the data were processed

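Bowtie2, RSEM and the build mm10 are named, without their roles, per the submitters' processing notes. The annotation release, tool versions and strandedness were not given in the sources used here. The authors' expected counts are estimates per gene, not normalized, and were rounded to whole numbers for testing. The authors' FPKM values, per the file headers, were used as deposited for levels, and the series table held the same values. The deposited length is another per-gene value of each library, in bases. A gene not listed for a library was set to 0.

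edgeR 4.0.16 was run in R 4.3.3 (TMM factors from 0.966 to 1.03, filterByExpr keeping 12943 genes with 99.95% of counts, quasi-likelihood F test without covariates), with Benjamini-Hochberg adjustment over all tested genes at 0.05. The SE is the size of the log2 fold change over the root of F. The model had 2 residual degrees of freedom and was tested on simulated data. There, far fewer genes changed than were called here, and noise was set the same in both groups. Within groups, libraries differed by more than counting noise (chi-square per degree of freedom 2.77 for NaBu and 7.27 for controls). Intervals on counts are exact binomial and cover counting error only.

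Alternatives were library totals or median-of-ratios factors for scaling, no filter, a minimum of 5 CPM in 2 libraries, DESeq2 1.42.0, limma 3.58.1 with pseudocounts of 1 and 0.1 on log2 FPKM (filtered at 1 FPKM in 2 libraries), limma without that filter, glmTreat, a replicate block, leaving out each library and, chosen after seeing the data, removal of a loess trend on transcript GC content. The 9 genes and all lists were chosen with earlier results of these data known. The text names the 9 genes, up to 4 called genes per list with an FPKM of 1 or more by size of change, and 30 genes chosen by name, not all of which are described; some genes are not reported here. Outside this rule, *Zbtb24*, *Polb*, *Igf2r*, *Gnas*, *Dazl*, *Ddx4*, *Sycp3*, *Tcf7* and the marker genes other than *Cd3e*, *Cd8a* and *Cd4* were chosen after their values were seen.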

Additional observations from a re-analysis of the deposited data

How the results depend on the processing

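Directions are relative to the TMM scale. Over all tested genes the median was 0.005, against 0.102 on library totals. *Dnmt1* (-0.92 to -0.80), *Uhrf1* (-1.20 to -1.02), *Dnmt3b*, *Tet3* and *Tdg* kept direction and call under every alternative run except, for the last 3, glmTreat against 1.5-fold. Under glmTreat 2214 genes were higher and 1565 lower, and 0 members were higher and 2 lower. *Dnmt3a* (-0.35), *Dnmt3b* (0.57), *Tet1* (0.81), *Tet3* (-0.50) and *Tdg* (-0.45) did not pass it. *Tet1* was below the FPKM filter, so limma on log2(FPKM + 1) and on log2(FPKM + 0.1) called 1 member higher. *Dnmt3a* did not pass by limma without a filter (-0.23). *Tet2* ranged from -0.10 to 0.24 when 1 library was left out (-0.0044 without NaBu 2) and was 0.29 with the GC trend removed. *Mbd2*, never past the test, was 0.0781 on library totals, 0.0402 with a minimum of 5 CPM, 0.0773 by limma with a pseudocount of 1 (filtered or not), 0.0779 with 0.1, and -0.0629 to 0.0152 when 1 library was left out (0.0063 without NaBu 2). The share of *Dnmt1* in controls was 91.4% also from expected counts per length, a shift above its very small SD. Where leaving out a library leaves 1 in a group, that library is assumed to vary like the other group. For values other than these the cause was not tested.

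The libraries were not paired in the main test, since the labels give no pairing. Deviations of same-numbered libraries correlated at -0.0306 across genes, which does not decide whether they were paired. With the replicate block 4468 genes were higher and 4385 lower, and 2 members higher and 5 lower, as without it.

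Depth was lowest among the 9 genes for *Tet1*, at 73.8 to 140 counts per library.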

Other observations

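Lists of genes known to be controlled by DNA methylation in other settings were also counted, and no methylation was measured. Imprinted genes are expressed from 1 parental allele, in at least some tissues or transcripts, under the control of methylated regions. Alleles were not told apart here. Of 20 tested imprinted genes, 16 were higher and 2 lower after NaBu. Of the 20, 7 had under 10 counts in both controls and passed the filter on low counts only through the NaBu libraries, so they had to differ, and all 7 are among the 16. Of the other 13, 9 were higher, 2 lower and 2 did not pass, beside 34.5% higher and 34.1% lower over all tested genes. Low genes were higher more often in general, 49.2% of tested genes averaging under 1 FPKM and 31.9% of the others. Among imprinted genes averaging 1 FPKM or more, 7 of 10 were higher and 2 lower. *Igf2r*, encoding a receptor that clears IGF2, was at 74.7 and 76.2 FPKM in NaBu libraries against 31.5 and 29.2 FPKM in controls. *Airn*, the RNA transcribed antisense across *Igf2r*, was at 7.71 and 8.73 FPKM in NaBu libraries against 2.50 and 1.64 FPKM in controls, and without stated strandedness the reads of the overlapping genes cannot be told apart. *Snrpn*, a splicing protein gene, was at 7.09 and 5.79 FPKM in NaBu libraries against 2.41 and 2.24 FPKM in controls. *Gnas*, the most abundant of the list, was lower, at 363 and 384 FPKM in NaBu libraries against 508 and 504 FPKM in controls. DESeq2, the GC correction and leaving out NaBu 1 each left 1 imprinted gene lower.

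Of 25 listed germline genes that promoter methylation keeps silent in somatic cells, 14 had a row, 3 were tested and 1 was called, *Brdt*, a testis bromodomain gene, at 1.59 and 1.35 FPKM in NaBu libraries against 0.22 and 0.32 FPKM in controls. All 3 tested averaged under 1 FPKM, a class of which 49.2% of tested genes were higher. Of those not tested, *Sycp3* was highest, at 0.65 and 0.32 FPKM in NaBu libraries against 0.13 and 0.09 FPKM in controls. *Dazl* was at 0.19 FPKM or less and *Ddx4* at 0.18 FPKM or less in all libraries. Without NaBu 2, 2 germline genes were higher and 1 lower. Of 18 tested genes listed for known DNA methylation change in T cells, 13 were higher, none lower and 5 did not pass. Over all tested genes 34.5% were higher and 68.6% were called in either direction. *Cd4*, with under 10 counts in both controls, passed the filter only through the NaBu libraries, so it had to differ. Of the other 17, 12 were higher, none lower and 5 did not pass. Among the largest rises, *Ifng*, *Prf1* and *Klf2* had log2 fold changes of 4.01, 2.17 and 2.37, while *Tcf7* had -0.10 and did not pass. With the GC trend removed 1 of these genes was lower, and without control 1 2 were lower.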
